A study of Cucumis melo with 9 samples.

Results

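Fruit moved out of the cold for 1 d were compared with fruit that stayed in it, to find which functions of the transcriptome switch on or off with the return to room temperature. Ripe fruit of melon 'HT', a climacteric cultivar of oriental melon, were picked together for both groups. Rewarmed fruit (group A) spent 7 d at 4°C followed by 1 d at about 22°C, whereas chilled fruit (group B) spent all 8 d at 4°C, so that the groups differed only in the last day; the labels describe both as free of chilling injury. There were 3 replicates per group, each a pool of 3 fruits, and thus 6 of the 9 libraries of the series. The other 3 libraries, from fruit picked 8 d after the others (group C), entered only the filter, the scaling between libraries and the estimate of the spread. All 29980 genes of the deposited table were taken. Of these, 8753 had no count in any library and 15022 (50.1%) had a mean FPKM (fragments per kilobase of gene and per fixed number of mapped fragments) above 1 over the 9 libraries and were tested.

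In climacteric melons such as 'HT', ethylene drives much of the ripening. Their scent rests largely on volatile esters, which alcohol acyltransferases make from alcohols and acyl-CoAs. Low temperature slows enzymes, stiffens membranes and disturbs the folding of proteins and RNA, and plant cells answer with chaperones, desaturases and antioxidant enzymes. On rewarming, respiration and ripening can resume. The bulk RNA of pooled fruit carries all cells of the sample, and fewer cells of a type and less RNA per cell cannot be told apart.

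The 6 libraries held 15609614 to 19011486 counts. The 1000 genes with most counts held 48.2 to 48.8% of them after rewarming and 54.1 to 55.7% in chilled fruit, and the scaling factors (TMM) were 1.12 to 1.13 and 0.764 to 0.809. Levels are given as TMM-scaled FPKM, the deposited FPKM divided by that factor, for replicates 1, 2 and 3 in turn. Replicate 1 of the chilled fruit stood apart from the other 2: its counts differed from theirs with a chi-square per degree of freedom of 39.5 and 47.3, against 6.98 between the other 2 and 22.8 to 37.4 among the rewarmed libraries. Without it, 3690 genes were called higher and 3699 lower, against 3778 and 3798 with all libraries. Markers of the ripe flesh were present in every library: CmACO1 (MELO3C014437.2), an ethylene-forming oxidase of ripening, was at 1332, 2421 and 633 in rewarmed and 466, 593 and 575 in chilled fruit (log2 fold change 1.42, and 0.85, under the fold threshold, without replicate 2 of the rewarmed fruit). The summed level of 32 genes described as seed storage or oil body proteins was 90.2 to 93.2 after rewarming and 340 to 484 in chilled fruit; 11 were tested, of which 1 was higher and 7 lower, and 8 of the 32 had no count in the 6 libraries. Phloem proteins (34 genes, 14 tested, 3 higher, 7 lower, 11 with no count) summed to 132 to 173 against 372 to 437. Photosystem and chlorophyll-binding proteins (97 genes, 63 tested, 23 with no count) summed to 10582 to 14804 against 10334 to 12067. Cutin and wax enzymes (48 genes, 31 tested, 7 with no count) summed to 738 to 1416 against 723 to 1161. The groups overlapped in both sums. As a share of counts, with no TMM factor, photosystem proteins did not overlap, at 1.78, 1.40 and 1.96% against 1.01, 1.12 and 0.959%. Proteins named after chloroplast-encoded genes (157 genes, 42 tested, 85 with no count) summed to 623 to 744 against 1149 to 1206, and those named after mitochondrion-encoded genes (11 genes, 2 tested, 0 higher, 1 lower, 7 with no count) to 18.6 to 19.9 against 67.0 to 72.5. As a share of counts the chloroplast-encoded group was closer, at 0.0901, 0.0774 and 0.0914% against 0.0950, 0.101 and 0.103%. The part of these shifts in the results below was not tested.

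A gene was called where edgeR's quasi-likelihood test gave an adjusted p (Benjamini-Hochberg) below 0.05 and the level changed by more than 1 on the log2 scale, in either direction. By this rule 3778 genes (25.1% of those tested) were called higher and 3798 (25.3%) lower after rewarming, together 50.4%. Among the called genes 7499, or 99%, had 3 and 3 libraries that did not overlap, whereas over all tested genes 39.4% lay wholly above and 40.5% wholly below the other group. The split depended on the scaling: with library totals in place of TMM, 5472 genes (36.4%) were higher and 2584 (17.2%) lower, and the median over all tested genes moved from -0.02 to 0.49 on the log2 scale. All 3778 higher calls were also made with library totals, and 2584 of the 3798 lower ones. Losses went further than gains with TMM. A log2 fold change beyond 6 was reached by 69 of the higher and 147 of the lower genes, while the median size was 1.86 and 1.96.

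The response also differed in how much RNA it moved. Genes called lower took 55.4, 52.4 and 52.4% of the counts of the chilled libraries and 18.1, 18.1 and 17.5% of those of the rewarmed libraries. Genes called higher went from 4.77, 5.32 and 5.17% to 28.2, 28.5 and 28.3%. The calls chose these genes, so the shares only describe their weight. Lower calls were more frequent among abundant genes: in the top of 5 equal bins by level over both groups (46.4 TMM-scaled FPKM and above), 39.4% were lower and 10.2% higher, and in the bottom bin (3.63 and below) 20.3% were lower and 36.2% higher. The shortest of 5 bins of gene length (968 bp and below) had 30.7% lower and 22.3% higher calls. The shares of higher calls were 22.7 to 27.1% and of lower calls 22.2 to 28.3% on the 12 chromosomes.

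**Figure D1:**
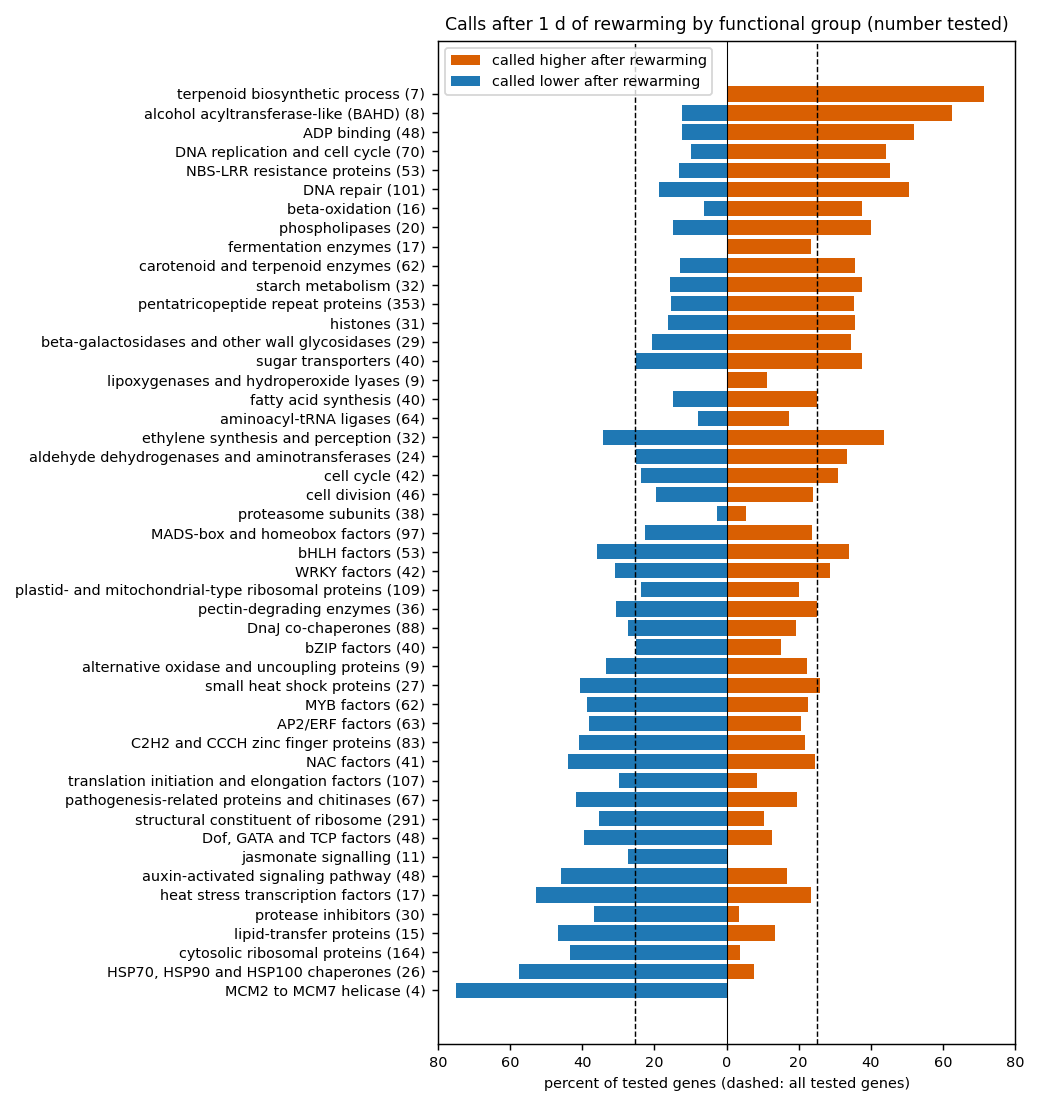
Percent of tested genes called higher (right, orange) and lower (left, blue) after 1 d of rewarming in 48 functional groups of the text, with the number tested beside each name. Dashed lines mark the 25.1% higher and 25.3% lower of all 15022 tested genes; cytosolic ribosomal proteins and HSP70, HSP90 and HSP100 chaperones lie far to the left and alcohol acyltransferase-like enzymes far to the right.

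Switching in the plain sense, a level near 0 in one group and clearly present in the other, was rarer and mostly in the direction of loss. A gene was counted as switched off where it was called lower, stayed below 0.5 TMM-scaled FPKM in all 3 rewarmed libraries and reached at least 5 in all 3 chilled ones, and as switched on in the mirror case. This held for 100 genes (0.666% of those tested) that went off and 30 (0.2%) that came on. Of the 100, 6 had no count at all after rewarming, and of the 30, 3 had none in chilled fruit. The numbers follow the limits chosen: with 1 and 5 they were 195 off and 93 on, and with 0.5 and 10 they were 45 and 11. With library totals 73 were off and 49 on.

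Regulators and signalling proteins stood among the transcripts that vanished. The transcription factor TGA2-like MELO3C008968.2, a bZIP protein of a class known from defence gene control, had 754, 225 and 419 counts in chilled fruit and none in rewarmed fruit, which is at least 681-fold lower after rewarming taking 3 counts in all as the floor of a group. A ubiquitin domain-containing protein (MELO3C016122.2) likewise went from 108, 44 and 45 counts to 0, at least 96-fold lower. The factor bHLH117 (MELO3C018792.2), at 19.1, 22 and 25.5 in chilled fruit, had 1 count left over the 3 rewarmed libraries, a chilled to rewarmed ratio of 1237 (95% counting interval 221 to 48905). An abscisic acid receptor (MELO3C016864.2), a protein of the PYL kind that binds the hormone, stood at 185, 137 and 152 in the cold and 0.142, 0.33 and 0.371 after rewarming (log2 fold change -9.08, SE 0.37, edgeR adjusted p = 6.98e-08). TIFY 9 (MELO3C022348.2), of the JAZ repressors of jasmonate signalling, changed by -6.70 and the heat stress factor B-3-like (MELO3C009805.2) by -6.30. A mitogen-activated kinase kinase kinase 2-like protein (MELO3C007407.2), 2 genes of calmodulin or calmodulin binding (MELO3C014279.2 and MELO3C021907.2) and 3 receptor-like kinases were also off. Of 259 receptor-like kinases tested, these 3 were off and 1 was on. By GO term, 4 of 597 genes of protein kinase activity and 2 of 279 of DNA-binding transcription factor activity were off. Both shares were close to the 0.666% over all tested genes.

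RNA-dependent RNA polymerases, which copy RNA into the double strands from which small interfering RNAs are cut, changed in both directions. Of 7 tested genes of the KEGG orthologue K11699, 3 were lower, all of them switched off, and 3 were higher, 1 of which the files describe as a phospholipase D. MELO3C005257.2 stood at 55.9, 33.8 and 44.8 TMM-scaled FPKM in chilled fruit and at 0.0458, 0.0303 and 0.0265 after rewarming, and its log2 fold change was -10.28 (SE 1.05, edgeR adjusted p = 2.43e-05). MELO3C005284.2 went from 14.7, 8.44 and 10.6 to 0.0286, 0.0427 and 0.0497, and MELO3C000911.2 from 28, 29 and 33 counts to none, at least 43.9-fold lower. The 3 rewarmed libraries lay below the 3 chilled ones in each case. Of those that rose, MELO3C026815.2 had a log2 fold change of 2.05 and MELO3C017106.2 of 1.09. Apart from MELO3C005257.2, the polymerases named here were chosen after their values were seen.

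Enzymes of wall, lipid and phenolic metabolism made up another share of the losses. A patatin (MELO3C007037.2), a lipid acyl hydrolase, was at 293, 66 and 37.3 in chilled fruit, where replicate 1 exceeded the other 2, and at 0, 0.0975 and 0.114 after rewarming. Glycerol-3-phosphate acyltransferase 1 (MELO3C014475.2), of a family that acts on glycerolipids and cutin precursors, fell from 12, 30.9 and 22 to 3 counts in all, a ratio of 833 (95% counting interval 284 to 4042). Off as well were xyloglucan 6-xylosyltransferase 1 (MELO3C016016.2), which decorates the hemicellulose xyloglucan, cellulose synthase-like protein H1 (MELO3C019297.2), a sucrose synthase (MELO3C001956.2), a catalase (MELO3C017024.2), and 2 phenylalanine ammonia-lyases, the entry enzymes of phenylpropanoid synthesis (MELO3C014222.2 and MELO3C014229.2, chosen after their values were seen). An ACC synthase (MELO3C007662.2), which makes the precursor of ethylene, stood at 14.5, 6.95 and 5.28 in the cold and 0.116, 0 and 0.126 after it. Late embryogenesis abundant protein D-29-like (MELO3C016388.2), of a kind that protects dried or cold cells, went from 145, 70.1 and 59.7 to 0, 0.36 and 0. Of the 100 genes, 16 were described as unknown or uncharacterized.

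Fewer functions came on from near silence and 2 of the 30 belong to fatty acid synthesis. An acyl-[acyl-carrier-protein] desaturase (MELO3C008413.2), which sets the first double bond of plant fatty acids, had 1377, 2198 and 3476 counts after rewarming and 0, 1 and 1 in chilled fruit. Its level was 50.8, 80.5 and 111, and the ratio to the 2 chilled counts was 2412 (95% counting interval 667 to 19918). A 3-oxoacyl-[acyl-carrier-protein] reductase FabG (MELO3C019108.2), of the elongation cycle of the same pathway, rose from 0.0879, 0.0859 and 0 to 7.28, 12 and 6.02. A 9-cis-epoxycarotenoid dioxygenase (MELO3C007127.2), of the family that cuts carotenoids on the way to abscisic acid, rose from 0.16, 0.117 and 0 to 20.4, 21.9 and 20.7, and an expansin (MELO3C020005.2), a wall-loosening protein, from 0.0665, 0.13 and 0.269 to 32.4, 22.3 and 30.1.

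Other genes that came on act in gene regulation and in organelles. A homeobox leucine-zipper protein (MELO3C031501.2), of a plant family of transcription factors, had 123, 40 and 81 counts after rewarming and none in the cold, at least 55.6-fold higher. A MYB-related transcription factor (MELO3C005406.2) had 109, 187 and 123 counts against none, at least 95.5-fold higher. Among the 30 genes there were 4 pentatricopeptide repeat proteins, which bind organelle RNA (MELO3C019488.2 at 6.33, 5.43 and 7.07 against 0.13, 0.218 and 0.195), and the group as a whole held 353 tested genes with none switched off. A glutaredoxin (MELO3C018372.2, 19.8, 15.2 and 26 against 0, 0.0731 and 0.121), a thiol oxidoreductase, the zinc finger protein ZAT4-like (MELO3C013935.2), DSR6 (MELO3C008201.2, 67.6, 53.6 and 56.3 against 0.438, 0.342 and 0.142) and an alkylmercury lyase-like gene (MELO3C018790.2, 18, 87.1 and 70.9 against 0.364, 0.118 and 0.0979) were of the same set. Replicate 1 of the rewarmed fruit was the lowest of its group for the last of these.

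**Figure D2:**
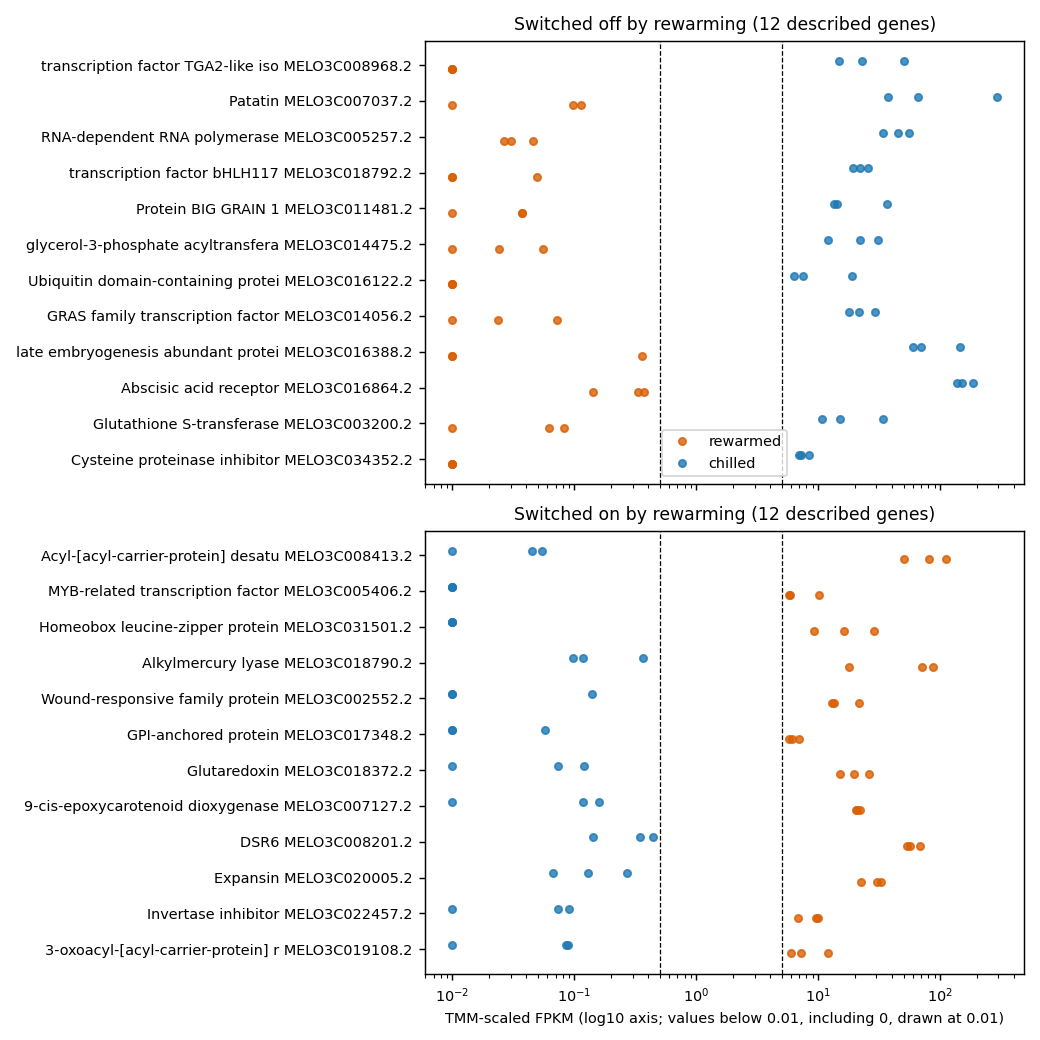
TMM-scaled FPKM (log10 axis, with 0 drawn at 0.01) of 12 genes switched off and 12 switched on, one point per library (orange rewarmed, blue chilled, 3 each). The dashed lines at 0.5 and 5 are the limits of the definition; the points of each gene lie on opposite sides of both.

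The 10 genes with the largest gain in mean level went from 0.614% of the counts in chilled to 3.65% in rewarmed fruit on average, and the 10 with the largest loss from 4.28 to 0.941%. All genes called higher went from 5.09 to 28.3% and all called lower from 53.4 to 17.9%. Among the 10 genes with the largest gain were 2 acyltransferases described as benzyl alcohol O-benzoyltransferase, a name of the family of alcohol acyltransferases. CmAAT1 (MELO3C024771.2) stood at 2833, 2512 and 2032 after rewarming and 307, 337 and 296 in chilled fruit (log2 fold change 2.97, SE 0.17, edgeR adjusted p = 2.83e-07). Its neighbour in the numbering, MELO3C024766.2, was at 1832, 2196 and 2174 against 137, 77.8 and 81.8 (4.39, SE 0.24). A glutathione S-transferase (MELO3C032563.2), of the enzymes that conjugate toxic compounds to glutathione, was at 2281, 2965 and 2147.9 against 90.2, 70.8 and 76.8, and HMG-CoA reductase (MELO3C026512.2), the control step of the mevalonate route to terpenoids, at 1414, 1311 and 1581 against 135, 132 and 114. The groups were far apart for these 4 genes, with no overlap between libraries. PR-4-like MELO3C004385.2 and chitinase MELO3C007961.2, proteins of pathogen defence, gained as much but spread more, with 3224, 7691 and 3769 against 704, 1858 and 2228 for the first and 3005, 7264 and 3348 against 1458, 1679.9 and 1901 for the second. In both, replicate 2 of the rewarmed fruit was the highest of its group, and without it neither was called, at log2 fold changes of 1.13 (edgeR adjusted p = 0.0581) and 0.92, against 1.62 and 1.43 with it. Smaller folds on abundant transcripts were those of digalactosyldiacylglycerol synthase 1 (MELO3C032827.2, 1.32), which makes the main lipids of plastid membranes, a type 2 metallothionein-like protein (MELO3C009260.2, 1.20), an abscisic stress ripening-like protein (MELO3C025025.2, 1.77) and the stem-specific protein TSJT1 (MELO3C021407.2, 1.76).

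Translation and folding genes were among the 10 largest losses. A SUI1-like translation factor (MELO3C013163.2), related to the initiation factor that helps the ribosome find the start codon, was at 5690.2, 6180.3 and 5390 in chilled fruit and 177, 169.7 and 164 after rewarming (log2 fold change -5.08, SE 0.14, edgeR adjusted p = 1.47e-08). Elongation factor 1-alpha (MELO3C020441.2), which brings aminoacyl-tRNA to the ribosome, fell from 4328, 4499 and 4523 to 922, 926 and 894. A luminal binding HSP70 (MELO3C005757.2), the chaperone BiP of the endoplasmic reticulum, fell from 2863, 2042 and 2182 to 80.6, 97.5 and 76.4. Phosphoprotein ECPP44-like (MELO3C026550.2), of the dehydrin kind, went from 5684, 7493 and 6895 to 451, 404 and 269. Every rewarmed library was below every chilled one in these 4 genes. The other losses of the 10 were those of a late embryogenesis abundant 3 protein (MELO3C015995.2, -2.27), S-adenosylmethionine decarboxylase of polyamine synthesis (MELO3C023786.2, -2.53), a non-specific lipid-transfer protein (MELO3C009108.2, -2.11), glutathione S-transferase MELO3C031601.2 (-4.01), the unknown protein MELO3C030673.2 (-5.31) and gibberellin-regulated protein 11-like (MELO3C003752.2), whose log2 fold change was -1.08 with TMM and -0.57, under the fold threshold, with library totals.

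**Figure D3:**
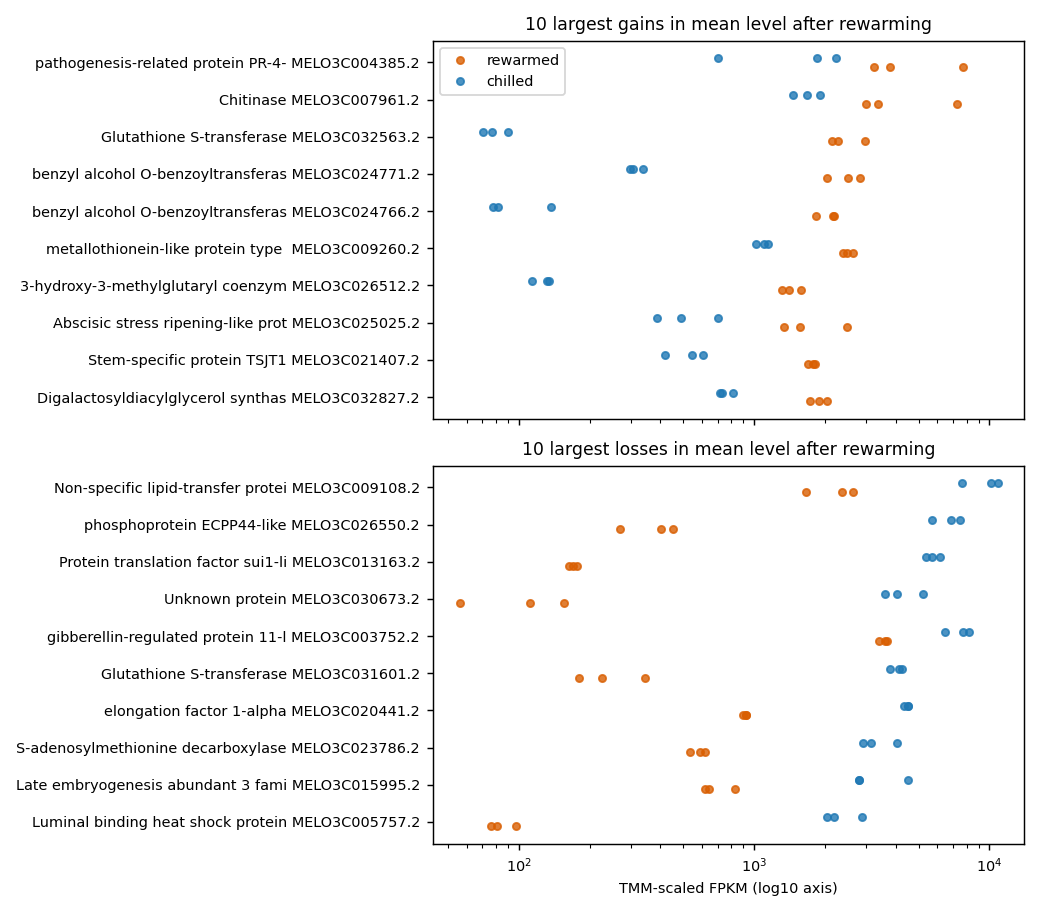
TMM-scaled FPKM (log10 axis) of the 10 genes with the largest gain (upper panel) and the 10 with the largest loss (lower panel) in mean level, one point per library (orange rewarmed, blue chilled, 3 each). In all 20 genes the 3 rewarmed points lie on one side of the 3 chilled points; the gaps are widest for the translation factor sui1-like and the unknown protein among the losses and for a glutathione S-transferase among the gains.

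Of the 8 tested acyltransferases of the BAHD family, 5 were higher and 1 lower, with a median log2 fold change of 1.94 against -0.02 over all tested genes. Their share of the counts was 0.958, 0.964 and 0.86% after rewarming and 0.0878, 0.082 and 0.0766% in the cold. CmAAT3 (MELO3C024762.2) was at 0.521, 1.1 and 0.346 against 0.0463, 0.181 and 0.187 and did not pass (edgeR adjusted p = 0.0726), although it did with DESeq2 (adjusted p = 0.0106) and with library totals (0.0344). The lower member, BAHD acyltransferase DCR (MELO3C006929.2, -2.18), belongs to cutin synthesis as known from Arabidopsis. Of 17 alcohol dehydrogenases, pyruvate decarboxylases and lactate dehydrogenases, 4 (23.5%, close to the share over all tested genes) were higher and 0 lower. The median of the group was 0.00, and its share of counts of 0.637, 0.567 and 0.596% against 0.246, 0.191 and 0.194% included CmADH1 (MELO3C023685.2), at 409, 605 and 424 against 25.9, 24.3 and 22.1, and CmPDC1 (MELO3C009145.2), at 1618, 1194 and 1399 against 837, 454 and 459. CmBCAT1 (MELO3C010776.2), which turns branched-chain amino acids into the keto acids of branched esters, was at 1305, 851 and 936 against 12.2, 13.2 and 11.8 (log2 fold change 6.37, SE 0.46, edgeR adjusted p = 2.62e-06). The other 5 tested genes of that name had log2 fold changes of 2.05, 0.50, -0.44, -0.72 and -1.16, of which the first was called higher and the last lower. Of 24 aldehyde dehydrogenases and aminotransferases as a group, 8 were higher and 6 lower (12 and 2 with library totals), and of 9 lipoxygenases and hydroperoxide lyases, which open the way to short-chain aldehydes, 1 and 0 (6 and 0 with library totals).

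Of 62 enzymes of carotenoid and terpenoid synthesis, 22 were higher and 8 lower (31 and 3 with library totals). Phytoene synthase (MELO3C025102.2), the first step of carotenoid synthesis, was at 108, 83.3 and 108 against 9.74, 14.4 and 12, and the sesquiterpene synthase Tps1 (MELO3C016593.2) at 33.7, 54.5 and 43.4 against 6.58, 4.73 and 5.34. Under the GO term terpenoid biosynthetic process, 5 of 7 tested genes were higher and 0 lower. Under carotenoid biosynthetic process only 1 of 7 (14.3%) was higher and 0 lower, and 3 and 0 with library totals. Geranylgeranyl reductase (MELO3C014712.2), which supplies the tails of chlorophyll and tocopherol, was 0.51, 0.432 and 0.361 against 9.65, 13.5 and 11.5, a loss. Of 20 phospholipases, 8 were higher and 3 lower, with phospholipase D genes at both ends: MELO3C007944.2 at 298, 174 and 253 against 10.1, 8.24 and 7.9, and MELO3C014016.2 at 1.59, 1.22 and 0.653 against 46.4, 12.1 and 10.3. Peroxisomal beta-oxidation (16 tested) had 6 higher and 1 lower, led by a multifunctional protein (MELO3C021318.2, 2.14). Under the GO term fatty acid beta-oxidation (5 tested), 1 was higher and 1 lower, and the shares of counts of the groups overlapped. Fatty acid synthesis (40 tested) had 10 higher and 6 lower, of which the higher share is close to that over all tested genes and the median was -0.02, with a share of counts of 0.668, 0.595 and 0.712% against 0.332, 0.319 and 0.296%.

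Genes of DNA replication and repair and histones were more often higher than lower, with exceptions. Of 70 genes of replication and the cell cycle, 31 were higher and 7 lower (median 0.83), and of 101 under the GO term DNA repair, 51 were higher and 19 lower (median 1.03); the percentages over all tested genes were 25.1 and 25.3. The replicative helicase MCM2 to MCM7, which opens the DNA ahead of the polymerase, went the other way, with 0 higher and 3 lower of 4 tested genes under both scalings and a median of -2.10. The GO terms cell cycle (13 higher and 10 lower of 42) and cell division (11 and 9 of 46) lay nearer to the shares over all genes. Cyclin-D5-1-like (MELO3C007628.2), a partner of cell cycle kinases, was at 20.1, 14.2 and 19.4 against 0.984, 0.743 and 1.41. Histones (31 tested, 11 higher, 5 lower, with library totals 18 and 4, 1 of the lower ones a deubiquitinase and no histone) took 0.388, 0.434 and 0.449% of the counts after rewarming and 0.139, 0.144 and 0.15% in the cold. The narrower KEGG orthologues of core histones (24 tested) had 7 (29.2%) higher and 4 (16.7%) lower, and 13 and 3 with library totals. Their share of counts differed less, at 0.189, 0.2 and 0.206% against 0.107, 0.107 and 0.113%. Histone H4 MELO3C019996.2 was at 23.6, 25.2 and 29.2 against 0.222, 0.542 and 0.179 and histone H2A MELO3C015882.2, of the opposite direction, at 0, 0.0937 and 0 against 2.42, 10.7 and 13.5. Cyclin-dependent kinase B2-2 (MELO3C017059.2), a kinase of mitosis, fell with a log2 fold change of -4.80. The replication group took 0.422, 0.414 and 0.442% of the counts against 0.264, 0.274 and 0.272%.

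Pentatricopeptide repeat proteins and resistance proteins also had more higher than lower calls. Among 353 pentatricopeptide repeat proteins, 125 (35.4%) were higher and 54 (15.3%) lower (171 and 33 with library totals), with a median of 0.44 and a share of counts of 0.682, 0.691 and 0.705% against 0.446, 0.491 and 0.497%. MELO3C017149.2 was among the lower ones, at 5.69, 4.54 and 3.16 against 74.2, 66.2 and 77.8. Of 53 NBS-LRR resistance proteins, intracellular sensors of pathogen effectors, 24 were higher and 7 lower (28 and 4 with library totals), and of 48 genes under the GO term ADP binding, which holds many of them, 25 and 6. The share of counts of the resistance proteins overlapped between the groups (0.151, 0.133 and 0.138% against 0.14, 0.118 and 0.112%). Aminoacyl-tRNA ligases (64 tested) had 11 higher and 5 lower, or 17.2% and 7.8%, both under the shares over all tested genes; with library totals the counts were 23 and 5. Arginine--tRNA ligase MELO3C021153.2 was at 509, 393 and 474 against 110.1, 53.3 and 51.2. Few proteasome subunits passed the fold threshold: of 38, 2 were higher and 1 lower at a median of 0.45, and with library totals 17 were higher and 0 lower. Their share of counts was 0.679, 0.766 and 0.694% against 0.371, 0.412 and 0.409%.

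Of 29 beta-galactosidases and other wall glycosidases, 10 were higher and 6 lower, and their share of counts was 0.506, 0.586 and 0.436% against 0.112, 0.165 and 0.176%; the group includes a mannan endo-1,4-beta-mannosidase 1-like enzyme (MELO3C022162.2) at 719, 819 and 816 against 58.6, 23.4 and 25.4. Pectin-degrading enzymes (36 tested) had 9 higher and 11 lower with TMM but 15 and 7 with library totals, and their share of counts was 0.145, 0.133 and 0.141% against 0.0739, 0.0717 and 0.0635%. The non-catalytic subunit beta of polygalacturonase-1 (MELO3C010662.2) was at 169.5, 158 and 167 against 3.37, 3.83 and 3.96, and a pectate lyase (MELO3C012394.2) at 0.517, 0.899 and 0.583 against 141, 35 and 34. Starch metabolism (32 tested) had 12 higher and 5 lower (19 and 4 with library totals), with beta-amylases, which release maltose from starch, on both sides: MELO3C016213.2 at 33.6, 35 and 37.7 against 4.83, 4.49 and 4.36, and MELO3C006362.2 at 47.6, 49 and 36.4 against 549.8, 672 and 616. Of 40 sugar transporters, 15 were higher and 10 lower (19 and 8 with library totals); 2 of the lower ones, sugar transport protein 13 (MELO3C014485.2) and a putative sugar transporter (MELO3C007325.2), had log2 fold changes of -7.02 and -8.40.

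**Figure D4:**
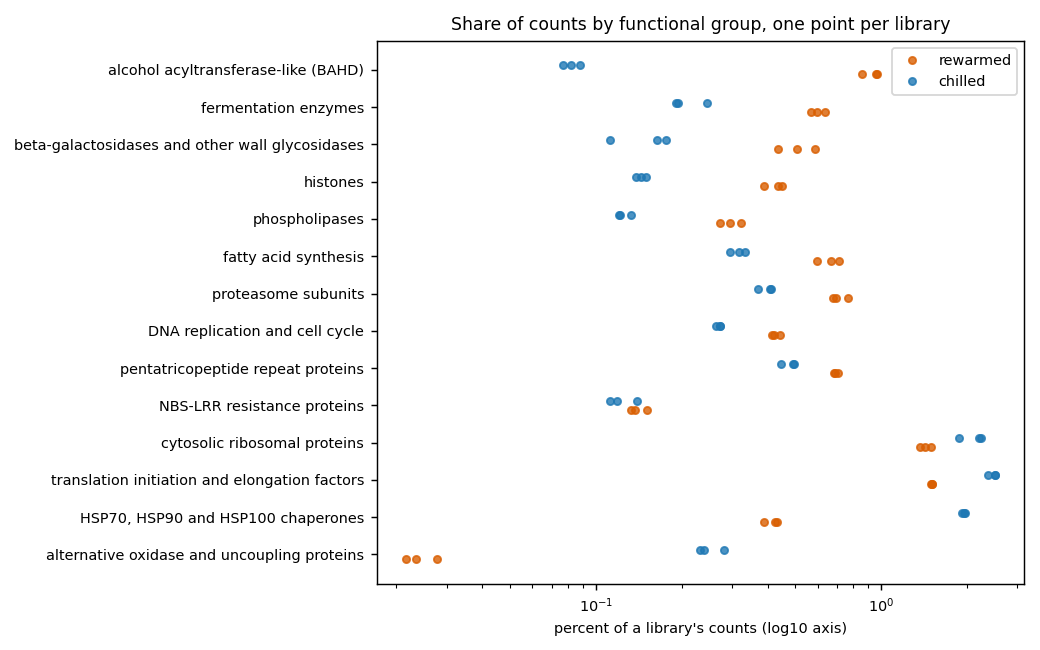
Percent of a library's counts taken by 14 functional groups (log10 axis), one point per library (orange rewarmed, blue chilled, 3 each). The shares are relative to the library total, so they follow the scaling by library totals and not TMM. Alcohol acyltransferase-like enzymes are highest above the chilled points and alternative oxidase and uncoupling proteins farthest below them, while NBS-LRR resistance proteins overlap.

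Among the groups plotted, chaperones had the highest share of lower calls after the MCM2 to MCM7 helicase (3 of 4 tested genes). Of 26 tested genes of HSP70, HSP90 and HSP100, 15 (57.7%) were lower and 2 higher, with a median of -1.67; with library totals the counts were 14 and 3. Both higher members are activators of the HSP90 ATPase and not chaperones, and 1 of the 26 is a transcription factor subunit caught by its size in kDa. The share of counts was 0.425, 0.432 and 0.39% after rewarming against 1.97, 1.95 and 1.92%. An HSP70 (MELO3C003119.2), of the ATP-driven chaperones of nascent and misfolded proteins, went from 2238, 1828 and 1749 to 99, 81.3 and 58.8 (log2 fold change -4.60, SE 0.27, edgeR adjusted p = 3.85e-07). Small heat shock proteins (27 tested) were 7 higher and 11 lower with TMM and 9 and 6 with library totals. The direction with more calls thus depended on the scaling. The median of the group was -0.64 with TMM and -0.14 with library totals, against -0.02 and 0.49 over all tested genes. The largest loss was that of a 17.5 kDa class I protein (MELO3C003195.2), at 10.1, 24.4 and 23.1 against 2651, 1660.2 and 1722. Of 17 heat stress transcription factors, the regulators of chaperone genes, 9 were lower and 4 higher. Factor A-3 (MELO3C027079.2) went from 228, 211 and 217 to 8.55, 6.94 and 8.24, and A-6b-like (MELO3C015804.2) from 7.89, 9.36 and 7.9 to 31.8, 28.5 and 28.4. DnaJ co-chaperones, which feed HSP70, were split, with 17 higher and 24 lower of 88, and with library totals 28 and 14.

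The cytosolic ribosome moved down by small steps in many members. Of 164 tested cytosolic ribosomal proteins, 71 (43.3%) were lower and 6 higher, with a median of -0.90. With library totals 28 were lower and 13 higher, at a median of -0.40. The share of counts, which is relative to the library total and takes no TMM factor, was 1.43, 1.49 and 1.37% against 1.88, 2.21 and 2.23%. Every rewarmed library was below every chilled one. The largest loss was that of 60S ribosomal protein L35a MELO3C029565.2, with a log2 fold change of -6.09, and MELO3C030913.2, described as 60S ribosomal protein L7, went up by 2.64. Over the wider GO term structural constituent of ribosome (291 tested), 103 were lower and 30 higher with TMM. With library totals the counts were 40 and 49, so the direction with more calls depended on the scaling. The median of the term was below that over all tested genes under both scalings. It was -0.74 against -0.02 with TMM and -0.24 against 0.49 with library totals. Ribosomal proteins of plastid and mitochondrial type (109 tested) had 22 higher and 26 lower with TMM and 34 and 10 with library totals. Initiation and elongation factors (107 tested) had 32 lower and 9 higher with TMM and 20 and 15 with library totals, and their share of counts was 1.5, 1.51 and 1.5% against 2.37, 2.5 and 2.51%; subunit A of initiation factor 3 (MELO3C007959.2) was at 1.39, 1.15 and 1.31 against 50.2, 36.9 and 28.3. Members of ribosomal families are often near-identical copies, and counts could be split between them.

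Energy and defence functions lost single strong transcripts. Among 9 alternative oxidases and uncoupling proteins, 2 were higher and 3 lower with TMM and 2 and 1 with library totals, yet the share of counts was 0.0278, 0.0217 and 0.0234% against 0.281, 0.239 and 0.232%. Its most abundant member in the cold was a ubiquinol oxidase (MELO3C027020.2), the plant enzyme that passes electrons to oxygen without pumping protons, at 32.4, 23.6 and 37.5 against 2491, 1971 and 1902; its relative MELO3C021713.2 was at 44.2, 40.4 and 41.5 against 14.2, 11.1 and 10.6. Of 30 protease inhibitors, 11 were lower and 1 higher, led by cysteine proteinase inhibitors such as MELO3C021766.2, at 0.96, 0.251 and 1.18 against 188, 109 and 110.4. A thaumatin-like protein (MELO3C023533.2) was at 0.304, 0.832 and 0.198 against 74.4, 60.8 and 53.2, and of 67 pathogenesis-related proteins and chitinases 28 were lower and 13 higher, although the share of counts of the group was 1.12, 2.06 and 1.16% against 0.558, 0.781 and 0.805%; the abundant PR-4-like protein and chitinase named above are members. Lipid-transfer proteins (15 tested) had 7 lower and 2 higher. 

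Most transcription factor families had more lower than higher calls with TMM, and fewer of them with library totals. Of 41 NAC factors 10 were higher and 18 lower (13 and 14 with library totals), but the share of counts was 0.492, 0.579 and 0.582% against 0.35, 0.359 and 0.356%. CmNOR (MELO3C016540.2), the NAC protein whose tomato relative is a regulator of ripening, was at 1000.2, 1098 and 1276 against 27.8, 25.1 and 23.8 (log2 fold change 5.46, SE 0.17, edgeR adjusted p = 2.22e-08), and MELO3C017754.2 at 555, 922 and 953 against 66.7, 40.5 and 49.4. Dof, GATA and TCP factors (48 tested) had 6 higher and 19 lower (10 and 17 with library totals), C2H2 and CCCH zinc finger proteins (83 tested) 18 and 34 with TMM but 24 and 22 with library totals, and AP2/ERF factors (63 tested) 13 and 24 (17 and 20 with library totals). ABR1 (MELO3C008014.2), an AP2/ERF repressor of abscisic acid responses in Arabidopsis, was at 0.132, 0.438 and 0.536 against 795, 309 and 194, with replicate 1 of the chilled fruit the highest. WRKY factors (42 tested) had 12 higher and 13 lower with TMM and 16 and 12 with library totals, at a share of counts of 0.161, 0.144 and 0.135% against 0.398, 0.22 and 0.215%. CmCBF1 (MELO3C006869.2), of the cold-response factors, was at 13.9, 1.26 and 0.659 against 3.69, 2.73 and 1.75 and the groups overlapped (log2 fold change 0.95, edgeR adjusted p = 0.406). The value rested on replicate 1 of the rewarmed fruit, without which it was -1.5 (edgeR adjusted p = 0.0298). In the other families the higher and lower calls with TMM, and then with library totals, were 14 and 24, then 16 and 18, of 62 MYB factors, 18 and 19, then 22 and 15, of 53 bHLH factors, 6 and 10, then 11 and 6, of 40 bZIP factors, and 23 and 22, then 32 and 17, of 97 MADS-box and homeobox factors. The response regulator-like protein APRR2 (MELO3C003375.2), whose tomato relative acts on fruit pigments, was at 613, 549 and 534 against 10.6, 8.74 and 7.78.

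Hormone functions contained members of both directions. Among 32 genes of ethylene synthesis and perception, 14 were higher and 11 lower (15 and 7 with library totals). CmACS1 (MELO3C021182.2), an ACC synthase, was at 24.8, 22.9 and 18 against 499, 397 and 262, whereas an ethylene receptor (MELO3C006451.2) was at 136, 172 and 200.4 against 33.2, 34.3 and 35.1 and the factor EIN3 (MELO3C015633.2), which turns on ethylene response genes, at 189, 197 and 211 against 971, 959 and 996. For abscisic acid, a 9-cis-epoxycarotenoid dioxygenase with the higher level (MELO3C016224.2) was at 428, 523 and 477 against 35.4, 35.1 and 34.4, and the receptor PYL4 (MELO3C009136.2) at 0.971, 1.19 and 0.744 against 145, 65.9 and 86.6. A gibberellin 2-beta-dioxygenase (MELO3C032832.2), which inactivates the hormone, rose to 73.3, 125 and 108 from 3.06, 0.855 and 2.02, and the receptor GID1A (MELO3C015880.2) fell to 26.1, 32.3 and 18 from 120, 143 and 165. In the jasmonate signalling orthologues of KEGG (11 tested) 3 (27.3%) were lower and 0 higher, against 25.3% and 25.1% over all tested genes, so the share of lower calls was close to that over all. Under the GO term auxin-activated signaling pathway (48 tested) 22 were lower and 8 higher with TMM and 16 and 13 with library totals.

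Many families held members of both directions. Of 211 KEGG orthologue numbers with at least 5 tested genes, 137 had calls in both directions, 28 only higher, 38 only lower and 8 none. Over all tested genes 25.1% were higher and 25.3% lower, so sets of unrelated genes of that size would often hold both directions too. How often was not tested. In 37 KEGG families at least 1 member was higher and 1 lower, each by more than 3 on the log2 scale, and this number has no such comparison either. Of 36 glutathione S-transferases tested, 6 were higher and 15 lower, from MELO3C032563.2 at 4.96 to MELO3C003200.2 at -8.52. Among 10 PIP2 aquaporins, water channels of the plasma membrane, 2 were higher and 6 lower. MELO3C013347.2 was at 1026, 556 and 593 after rewarming against 24.2, 37.7 and 23.8 in the cold, and MELO3C014239.2 at 7.16, 14.4 and 5.12 against 249, 585 and 581, so that the more abundant of these 2 copies changed with the temperature. Glutamate decarboxylase, which makes GABA, had MELO3C001938.2 at 734, 518 and 599.7 against 48.5, 68.8 and 62.9 and MELO3C005224.2 at 0.387, 0.933 and 0.959 against 16.3, 18.9 and 16.7. In the RMA1 family of membrane-bound ubiquitin ligases (9 tested, 4 higher, 5 lower), MELO3C002598.2 was at 927, 695 and 812 against 6.0, 2.89 and 2.82 and MELO3C016706.2 at 12.1, 9.81 and 8.67 against 154, 156 and 145. ABC transporters of the B family (13 tested, 8 higher, 2 lower) included MELO3C008741.2, at 2.51, 2.91 and 4.69 against 1344, 916 and 870.3. UDP-glucose 4-epimerase, which converts UDP-glucose to UDP-galactose, had MELO3C005769.2 at 27.6, 23.3 and 22.8 against 602, 312 and 311 and 3 of its 6 tested genes higher.

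Uniform families existed as well. The 6 tested genes of a cytochrome P450 orthologue (K07408) and the 5 of a pentatricopeptide repeat orthologue (K17710) were all higher, and the 5 xyloglucan 6-xylosyltransferases (K08238) and the 5 genes of an RNA helicase orthologue (K12854) all lower. They are the extremes of 211 families and were picked for it.

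**Figure D5:**
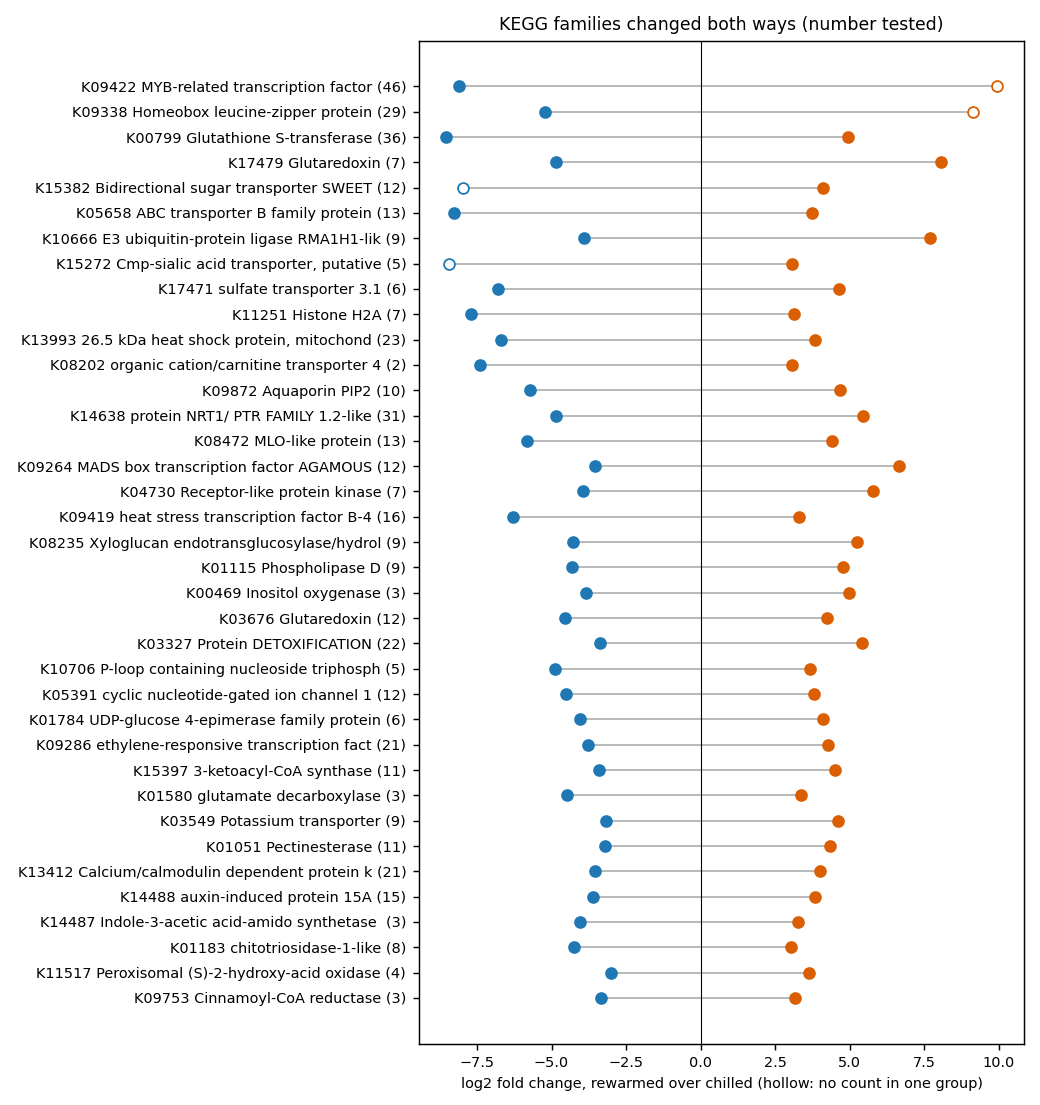
Log2 fold change (rewarmed over chilled) of the highest member (orange) and the lowest member (blue) of each of the 37 KEGG families with members beyond 3 in both directions, joined by a line. Points of genes with no count in one group rest on the prior count of the fit and are drawn hollow; MYB-related, homeobox leucine-zipper and glutathione S-transferase families span the widest ranges.

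Neighbouring copies sometimes moved as blocks. Runs of at least 3 adjacent genes of one family, all called in one direction, numbered 11, of which 5 were higher and 6 lower. Positions are those of the deposited table, which names no build; the methods of the study name the DHL92 genome. On chromosome 12, 4 cytochrome P450 genes between 24971608 and 25003039 were higher by 2.35 to 5.21 on the log2 scale. On chromosome 5, 3 PIP2 aquaporins between 4867151 and 4882676 fell, with log2 fold changes of -5.73 to -2.10, while MELO3C013347.2, 1 of the 2 that rose, lies on chromosome 1. Glutathione S-transferases formed a block on chromosome 7 between 21629359 and 21639230 that was higher by 1.91 to 4.96 and a block on chromosome 8 between 33122633 and 33127444 with log2 fold changes of -8.52 to -3.86. Other blocks were rhamnogalacturonate lyases on chromosome 4, pectin-cleaving enzymes that rose (1817306 to 1840860, 2.19 to 3.09), cytochrome P450 CYP72A219-like genes on chromosome 7 that fell (2856185 to 2882484, -6.61 to -3.23) and epoxide hydrolases on the same chromosome that fell (28245997 to 28256294, -4.43 to -3.28). Adjacent copies can share reads, and they are not independent of each other.

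A part of the response has no described function. Of 866 tested genes described as unknown or uncharacterized, 318 (36.7%) were lower and 196 (22.6%) higher, against 24.6% and 25.3% of the 14156 described ones. These genes are listed with no role, and none was given here.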

How the data were processed

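RNA of 'HT' melon fruit was sequenced in 9 libraries, 3 for each group. Per the methods of the study, the authors trimmed reads with cutadapt, aligned them with HISAT2 and counted them with HTSeq; the submitters' processing notes give cutadapt 1.15 and HISAT2 2.0.5, which differ from the versions of the methods. The authors deposited raw counts per gene, and FPKM computed from those counts, the library total and the gene length. The table also holds descriptions, GO and KEGG terms and the position of each gene.

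Genes with a mean deposited FPKM above 1 over the 9 libraries were tested on counts with edgeR 4.0.16 (TMM, robust quasi-likelihood fit, all 9 libraries, no block), Benjamini-Hochberg adjusted. A call needed an adjusted p below 0.05 and an absolute log2 fold change above 1. The common biological coefficient of variation was 0.191. TMM-scaled FPKM is the deposited FPKM divided by the TMM factor. Each replicate pooled 3 fruits, and the p-values measure the spread between such pools. On simulated data for this comparison (15022 genes), 87% of genes changed by 1.5 and 98% of genes changed by 3 on the log2 scale were recovered, with 5 false calls. Only 200 genes were changed there, as many up as down, and the TMM factors of the data were built in. It therefore cannot show how well the scaling holds where 50.4% of the genes are called. A fold against a group with no count is a bound against 3 counts over that group, and intervals cover counting error only.

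Functional groups were matched by words in the descriptions or by GO and KEGG terms, and a word can catch an unrelated gene. The members and lists were chosen with earlier results of these data known. Named genes were the 10 highest and 10 lowest log2 fold changes among called, described genes (level of at least 10 in the higher group, no overlap), the 10 largest gains and 10 largest losses in mean level, the 2 highest and 2 lowest called genes of each group (level of at least 5), and the extreme members of families moving both ways. Some of the genes the study names with an ID were added, and its other genes are not reported here. Alternatives were DESeq2 1.42.0, limma 3.58.1 on log2(FPKM + 1), other scalings, filters and limits, a replicate block and leaving out each library. Sequences are not used here.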

Additional observations from a re-analysis of the deposited data

How the results depend on the processing

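The counts of genes called higher and lower were 3778 and 3798. DESeq2 gave 3792 and 3828, and the fit on rewarmed and chilled libraries alone 4035 and 3552. Without a fold threshold, 5680 genes higher after rewarming and 5898 genes lower after rewarming were counted. With limma on log2(FPKM + 1), which keeps the library totals, 4801 were higher and 2337 lower; with library totals in edgeR, 5472 and 2584. Leaving out each library in turn gave 3690 to 3781 higher and 3699 to 3847 lower. The counts of switched genes followed their limits: 93 on and 195 off with limits of 1 and 5, 11 on and 45 off with 0.5 and 10, and 49 on with library totals. They ranged from 30 to 43 on and from 100 to 122 off when a library was left out. Of 96 counts over functional groups, 39 moved by over 1.5 times with library totals and 3 by leaving out 1 library: 4 proteasome subunits in place of 2 were higher without replicate 3 of the rewarmed or of the chilled fruit, 2 lipoxygenases and hydroperoxide lyases in place of 1 without replicate 2 of the rewarmed fruit, any chilled replicate or replicate 1 or 2 of group C, and 1 lipid-transfer protein in place of 2 without replicate 1 or 2 of the rewarmed fruit, any chilled replicate or replicate 3 of group C. Over all called genes, 3238 of the 3778 higher and 2284 of the 3798 lower calls were kept under every one of 17 refits. Of 110 called genes named in the text, 106 kept their call under every refit and none reversed. Most of them were picked for large changes, so they do not stand for all calls.

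The replicate numbers did not pair the samples: rewarmed and chilled libraries of one number had correlations of -0.0085, -0.075 and 0.035. With the replicate number as a block, 3775 genes were higher and 3774 lower, and 30 were switched on and 100 off.

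With 3 libraries a group, a single value cannot reach an exact permutation p below 0.10, so the shares of counts carry no test. The leave-one-out of those shares was chosen after seeing the data. Levels under 0.5 rest on few counts. Fruit were pooled, and the spread between single fruits is not measured.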
